A study of Mus musculus with 6 samples.

Results

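Cortical layer identity transcription factors were followed in primary mouse cortical neurons in which Opa1, a GTPase that fuses inner mitochondrial membranes, was knocked down. They were chosen by name as 9 genes of 55471 gene identifiers in the deposited count table: the upper-layer factors Cux1, Cux2, Rorb, Pou3f2 and Pou3f3 and the deep-layer factors Bcl11b, Fezf2, Tbr1 and Sox5. The rule takes gene names and no measured value, but the factors were chosen with earlier results of these data known. All 9 were among the 16562 genes that passed the low-count filter. The question taken from the list is whether upper-layer and deep-layer factors respond alike to the loss of Opa1.

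The 6 libraries came from cortices of CD1 mouse embryos of embryonic age E14.5-15, grown as neurons for 11 days and exposed to 2 uM of the mitotic inhibitor cytosine arabinoside (Ara-C). Both groups received lentivirus on day 6 and gave RNA on day 11. The control group, labelled WT, carried a control short hairpin RNA (shControl, n = 3), and the other group, labelled Opa1 knock-down, carried one against Opa1 (shOpa1, n = 3). The labels name no step that separates layers, and they call the 3 cultures of a group biological replicates. How many hairpins were used and which animals gave each culture is not given in the sources used here, and p-values measure only the spread between these libraries.

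The cortex is built inside out, with the deep layers 5 and 6 formed before the upper layers 2 to 4. Deep-layer neurons send axons out of the cortex and are specified by a network in which FEZF2 and its effector BCL11B (CTIP2) favour the layer 5 corticospinal fate, TBR1 the layer 6 corticothalamic fate, and SOX5 sets the order in which deep-layer types appear. Upper-layer neurons mostly connect cortical areas with each other and express the homeodomain factors CUX1 and CUX2 and the POU factors POU3F2 (BRN2) and POU3F3 (BRN1), while the nuclear receptor RORB marks layer 4. Several of these factors repress one another's programmes during development, and several stay expressed in mature neurons.

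Library totals ran from 24676709 to 32961580 counts. Opa1 stood between 201.9 and 204.6 CPM (counts-per-million scale, TMM-adjusted) in shControl and between 8.50 and 10.2 CPM in shOpa1, a log2 fold change of -4.48 (SE 0.0876, adjusted p = 2.09e-06 by edgeR's quasi-likelihood test). Neuronal genes were abundant, with the cytoskeletal genes Map2 and Tubb3 at 2030 ± 182 and 1598 ± 83.0 CPM in shControl (SD, n = 3). Genes of inhibitory and of glutamatergic neurons were both present. The GABA-synthesis gene Gad1 stood at 892 ± 29.0 CPM, and the glutamate transporter genes Slc17a7 and Slc17a6 at 407 ± 65.6 and 137 ± 44.2 CPM. Of the Cajal-Retzius markers, Reln stood at 1748 ± 366 CPM and Trp73 at 41.1 ± 12.0 CPM. Which cells gave the Reln reads was not tested. Of 6 microglial markers 5 were too low to test, and the oligodendrocyte gene Sox10 had at most 2 counts in any library. Libraries with the same replicate number were alike in both groups, and the libraries numbered 3 stood apart from the others for several of the factors, so blocked values (replicate number added to the model) stand beside the calls of factors and the counts over lists that they change.

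Of the 9 factors, 4 fell in shOpa1 and 0 rose at an adjusted p under 0.05, beside 38.9% of tested genes called in either direction. The 4 were Cux1 and Cux2 of the upper layers and Tbr1 and Bcl11b of the deep layers. Over all tested genes 20.0% were called lower and 18.9% higher, that is 3312 and 3130 genes. With library totals as the only scaling, which shifted the median of all genes by 0.12, the split was 2500 lower and 4487 higher. At an unadjusted p under 0.05 the lower factors were these 4 and Sox5, and 0 were higher. DESeq2 called Cux1, Cux2, Tbr1 and Pou3f3 lower and limma-voom Cux1, Cux2 and Tbr1, each with 0 higher. With the replicate block 6 of 9 fell and 1 rose, Pou3f3 and Sox5 joining the lower ones and Rorb standing higher, against 59.5% of all tested genes called, 30.7% lower and 28.8% higher. Without shControl replicate 1, and without shControl replicate 2, the fit with no block called 2 of the 9, Cux1 and Cux2. The shOpa1 and shControl libraries did not overlap for the 4 called factors, all lower, and no factor lay wholly higher. Over all tested genes 51.8% did not overlap, 26.0% lower and 25.8% higher. By sign alone, 7 factors were lower in all 3 pairs and Rorb was higher in all 3, against 38.2% and 36.6% of tested genes. In bulk RNA, fewer cells of a type and less RNA per cell cannot be told apart.

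**Figure D1:**
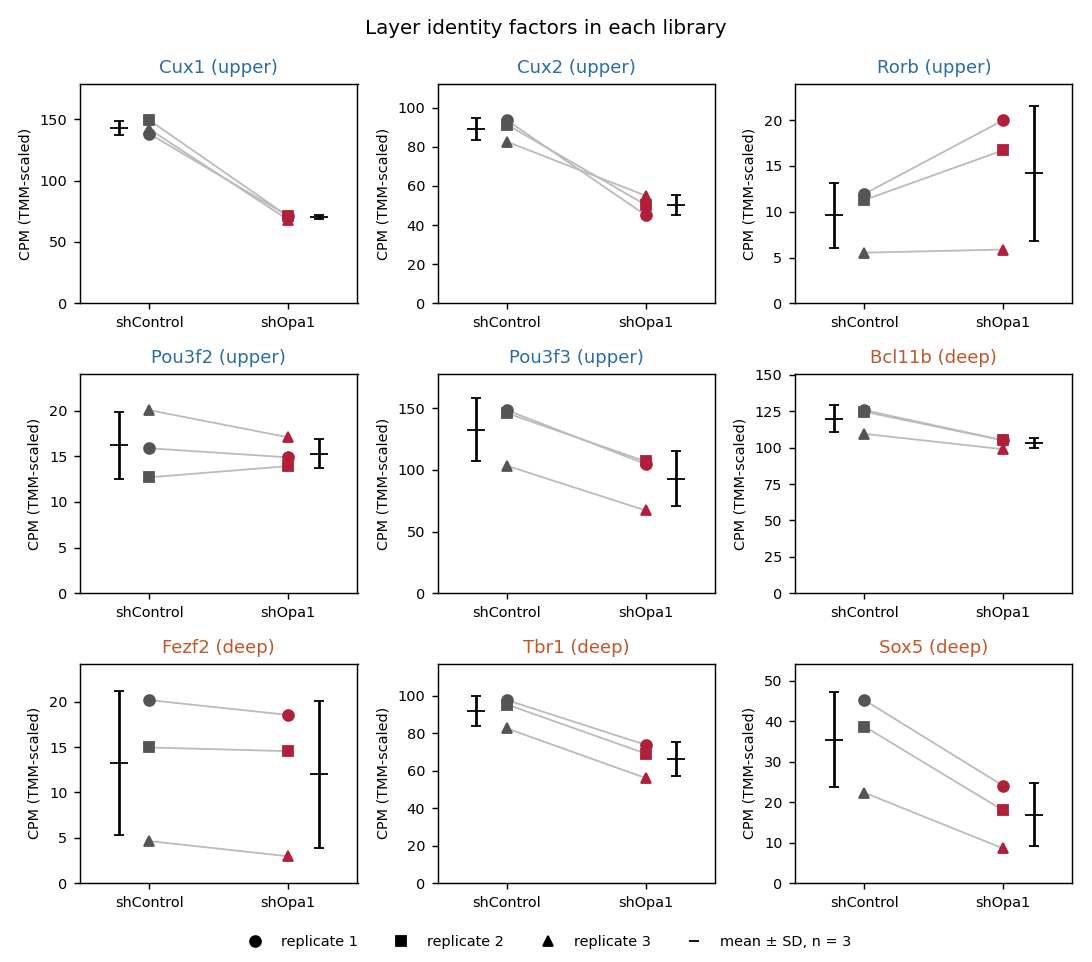
CPM (vertical axis, each panel from 0) of the 9 factors in shControl and shOpa1; symbols are libraries by replicate number, grey lines join libraries of the same number, and bars are mean ± SD (n = 3). Cux1 and Cux2 lie lower in all 3 shOpa1 libraries without overlap, while Fezf2, Rorb and Sox5 are lowest in the libraries numbered 3 of both groups.

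Cux1 fell with the smallest standard error of the 9 without the block. It stood at 138, 149 and 142 CPM in replicates 1 to 3 of shControl, and shOpa1 held 71.2, 70.9 and 68.1 CPM. The groups lay far apart, and the 3 shOpa1 values were within a few CPM of each other. Cux1 was 2.04-fold lower, with a log2 fold change of -1.03 (SE 0.0587, adjusted p = 5.36e-05), and between -0.95 and -1.07 in the 3 pairs. Cux1 (ENSMUSG00000029705) lies on chromosome 5 from 136248135 to 136567490 on the minus strand (GRCm38, positions as in the deposited table). Its locus also gives a splice form without the homeodomain, known as CASP, and the gene-level counts do not separate the forms.

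Cux2, the paralog that marks layers 2 to 4 and their progenitors, also fell. Its shControl libraries held 93.5, 91.3 and 82.5 CPM and its shOpa1 libraries 45.0, 50.3 and 55.0 CPM. The groups did not overlap, but the highest shOpa1 and the lowest shControl library both carried the number 3. The log2 fold change of Cux2 was -0.83 (SE 0.0914, adjusted p = 0.000594), with -1.05, -0.85 and -0.58 in pairs 1, 2 and 3. Cux2 (ENSMUSG00000042589) lies on chromosome 5 from 121856366 to 122050102, minus strand.

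Pou3f3 was lower in every pair, but did not pass edgeR's test without the replicate number in the fit. Its levels were 148, 146 and 103 CPM in shControl and 105, 107 and 67.1 CPM in shOpa1. Both libraries numbered 3 were the lowest of their group, so that shControl replicate 3 fell just below the shOpa1 replicates 1 and 2 and the groups overlapped. The log2 fold change of Pou3f3 was -0.51 (SE 0.218, adjusted p = 0.110) without the block and -0.52 (SE 0.0498, adjusted p = 5.06e-06) with it, and DESeq2 without the block gave an adjusted p of 0.0395. Within pairs it was -0.50, -0.45 and -0.62, and without shOpa1 replicate 3 the unblocked value was -0.33. Pou3f3 (ENSMUSG00000045515) is on chromosome 1 from 42694925 to 42703176, plus strand, and 3.41% of its exon bases are shared with another gene model on the same strand that had at most 58 counts.

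Its paralog Pou3f2 gave no call in any fit. Pou3f2 held 15.9, 12.7 and 20.1 CPM in shControl and 14.9, 13.9 and 17.1 CPM in shOpa1, and the shOpa1 values lay inside the range of shControl. Its log2 fold change was -0.08 with a 95% interval from -0.49 to 0.32 (adjusted p = 0.732), and from -0.26 to 0.12 with the block. The sign of Pou3f2 turned positive with library totals as the only scaling (0.04), in pairs 1 and 2 alone (0.02) and without shControl replicate 3 (0.10). Pou3f2 (ENSMUSG00000095139) is a gene of 1 exon on chromosome 4 from 22482780 to 22488366, minus strand.

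The 7-base sequence GAAACTA was searched in the factors' transcripts, because in an earlier analysis of these fold changes it was picked as the sequence whose carriers were shifted furthest toward lower values. It is shown with 11 bases on each side, in GENCODE release M21 transcripts on GRCm38, for the 3 places where a factor holds it, with GAAACTA in capitals.
Pou3f3 3' UTR site: aaaaattctggGAAACTAtgaggacaaga
Pou3f2 3' UTR site: ttttctttgcaGAAACTAtcatggggccc
Cux1 coding site: aatatgatgaaGAAACTActgcaaaggcc
The Pou3f3 site lies on chromosome 1 from 42701297 to 42701303, plus strand. The Pou3f2 site lies on chromosome 4 from 22483905 to 22483911 and the Cux1 site on chromosome 5 from 136360009 to 136360015, in exon 8 of 24 of its transcript, both on the minus strand. None of the protein-coding transcripts of Cux2, Rorb, Bcl11b, Fezf2, Tbr1 or Sox5 held it. Of 1334 tested genes with the sequence in the longest 3' UTR, 50.3% were called lower and 8.02% higher, against 18.7% lower of 12512 without it. With the block 60.4% and 30.1% were lower. These shares describe the fold changes that chose the sequence. Pou3f3 and Pou3f2, the 3' UTR carriers, had log2 fold changes of -0.51 and -0.08, and neither passed edgeR's test without the block. With the block Pou3f3 passed (adjusted p = 5.06e-06) and Pou3f2 did not (adjusted p = 0.502). DESeq2 without the block also called Pou3f3 (adjusted p = 0.0395). The factors with no copy in a protein-coding transcript ran from -1.07 for Sox5 to 0.57 for Rorb, and Cux2, Tbr1 and Bcl11b among them were called lower. Whether the sequence plays a part in any of these changes was not tested. Among the genes of the further lists described here, Nectin3 (3 copies), Crim1, Sox6, Bcl11a and Trp73 were named carriers of the sequence in the 3' UTR. All of these were called lower, but most named genes were picked by smallest p, which favours called genes. Of 17 factors of excitatory neurons 3 carried it, and 1 of these was called lower without the block. Zbtb18 and Zeb2, the carriers of this list not called, had adjusted p of 0.0557 and 0.272. With the block both were called lower (adjusted p = 1.8e-05 and 2.67e-05).

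Rorb was the only factor with a positive fold change. It held 11.9, 11.3 and 5.52 CPM in shControl and 20.0, 16.7 and 5.87 CPM in shOpa1. Replicates 1 and 2 stood well above their control partners, whereas replicate 3 hardly differed, and the groups overlapped. The log2 fold change of Rorb was 0.57 (SE 0.490, 95% interval -0.61 to 1.75, adjusted p = 0.406) without the block and 0.51 (SE 0.116, adjusted p = 0.00319) with it. Its pair values were 0.72, 0.55 and 0.08. Without the block the value of Rorb was 0.24 when shOpa1 replicate 1 was left out, 0.29 without shControl replicate 3 and 0.94 without shOpa1 replicate 3. Rorb (ENSMUSG00000036192), on chromosome 19 from 18930605 to 19111196, minus strand, was counted 149 to 620 times per library.

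Among the deep-layer factors Tbr1, the T-box factor of layer 6 and also of Cajal-Retzius cells, had the smallest adjusted p without the block. Tbr1 stood at 97.7, 95.4 and 82.6 CPM in shControl and at 73.8, 69.2 and 56.1 CPM in shOpa1. All 3 shOpa1 libraries lay below the lowest control. The log2 fold change of Tbr1 was -0.47 (SE 0.116, adjusted p = 0.0162), with -0.40, -0.46 and -0.55 in pairs 1 to 3. The adjusted p of Tbr1 missed the threshold when shControl replicate 1 (0.059) or shControl replicate 2 (0.0608) was left out, and with library totals as the only scaling (adjusted p = 0.0523). Tbr1 (ENSMUSG00000035033) lies on chromosome 2 from 61802930 to 61814114, plus strand.

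Bcl11b, the zinc finger factor of layer 5 projection neurons that striatal and some inhibitory neurons also use, fell the least of the called factors. Bcl11b held 125.7, 125 and 109 CPM in shControl and 105.04, 105 and 98.9 CPM in shOpa1. The groups did not overlap, though the lowest control lay only a few CPM above the highest shOpa1 library. Its log2 fold change was -0.22 (SE 0.0724, adjusted p = 0.0469), so that its level fell by 14.1%, with -0.26, -0.25 and -0.15 in the pairs. This call stood at the edge of the threshold and held in 5 of 14 alternatives, the adjusted p running from 0.00209 with the block to 0.343 with library totals only, where the log2 fold change was -0.10. Leaving out shControl replicate 1, shControl replicate 2 or any 1 of the shOpa1 libraries ended it (adjusted p = 0.0856 to 0.143). Bcl11b (ENSMUSG00000048251) lies on chromosome 12 from 107910403 to 108003602, minus strand.

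Sox5 had the lowest log2 fold change of the 9, at -1.07, but a wide error. Its levels were 45.2, 38.7 and 22.4 CPM in shControl and 24.1, 18.0 and 8.59 CPM in shOpa1. Each shOpa1 library lay below its own partner, yet shControl replicate 3 lay under shOpa1 replicate 1, so the groups overlapped. Without the block the SE of Sox5 was 0.413 and the adjusted p 0.0847, and with it the log2 fold change was -1.11 (SE 0.0847, adjusted p = 1.53e-06). The pair values were -0.90, -1.08 and -1.33. Without shControl replicate 3 Sox5 passed (adjusted p = 0.0492). Sox5 (ENSMUSG00000041540) spans chromosome 6 from 143828425 to 144781977, minus strand. The antisense gene Sox5os1 covers 9.25% of the Sox5 exon bases and had at most 1 count.

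Fezf2, the zinc finger factor that selects the layer 5 subcerebral fate, varied widely with the replicate number. Fezf2 held 20.2, 14.9 and 4.63 CPM in shControl and 18.5, 14.54 and 2.96 CPM in shOpa1. Both libraries numbered 3 were far below the others, and the groups overlapped. The log2 fold change of Fezf2 was -0.14 (SE 0.735, 95% interval -1.91 to 1.63, adjusted p = 0.900). With the block it was -0.19 (95% interval -0.43 to 0.05, adjusted p = 0.149), with pair values of -0.12, -0.04 and -0.57. Its sign turned without shControl replicate 1 (0.29) or shOpa1 replicate 3 (0.32). Fezf2 (ENSMUSG00000021743), on chromosome 14 from 12342094 to 12348189, minus strand, had the lowest count of any factor, 97 in shOpa1 replicate 3, where counting error alone is 10.2%.

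**Figure D2:**
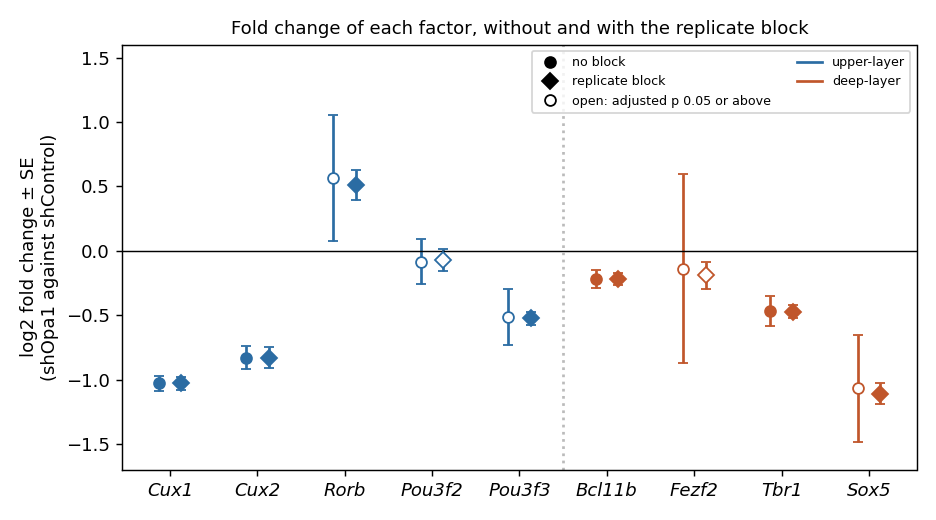
Log2 fold change ± SE (vertical axis, shOpa1 against shControl) of the 9 factors from edgeR without (circles) and with (diamonds) the replicate block; filled symbols passed an adjusted p of 0.05, blue marks upper-layer and orange deep-layer factors. Error bars of Rorb, Pou3f3, Fezf2 and Sox5 shrink with the block, and the upper-layer values (-1.03 to 0.57 without the block) overlap the deep-layer ones (-1.07 to -0.14).

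Set against each other, the upper-layer and the deep-layer factors overlapped in their fold changes. Of 5 upper-layer factors 2 fell and of 4 deep-layer factors 2 fell, becoming 3 lower and 1 higher and 3 lower with the block. Of all tested genes 20.0% were called lower and 18.9% higher, and 30.7% and 28.8% with the block. The median log2 fold change was -0.51 (range -1.03 to 0.57) for the upper-layer and -0.34 (range -1.07 to -0.14) for the deep-layer factors, beside -0.01 over all tested genes. Without shOpa1 replicate 3 the upper-layer median was -0.33, and without shOpa1 replicate 1 or shControl replicate 3 the deep-layer median was -0.58 and -0.54. Both classes held a member near -1, Cux1 and Sox5, and a member near 0, Pou3f2 and Fezf2.

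A class mean per library puts the comparison inside each culture, where library scaling nearly cancels. The mean log2(CPM + 0.5) of the upper-layer factors minus that of the deep-layer factors came to -0.16, -0.05 and 0.43 for replicates 1 to 3 of shControl, and to -0.11, 0.06 and 0.60 for those of shOpa1. The 2 groups overlapped, and the libraries numbered 3 were the highest of each group. The group means of this difference were 0.07 ± 0.313 and 0.18 ± 0.370 (SD, n = 3), a change of 0.11 against a pooled SD of 0.343. It was 0.04, 0.12 and 0.17 in pairs 1 to 3, and no p is given because the factors were picked with earlier results known. The change became -0.30 when CPM were summed within each class before taking logs, which gives the abundant factors more weight, and it also turned negative without Rorb (-0.10) or Sox5 (-0.09), with medians in place of means (-0.04), and without shControl replicate 1 (-0.0047) or shOpa1 replicate 3 (-0.10).

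**Figure D3:**
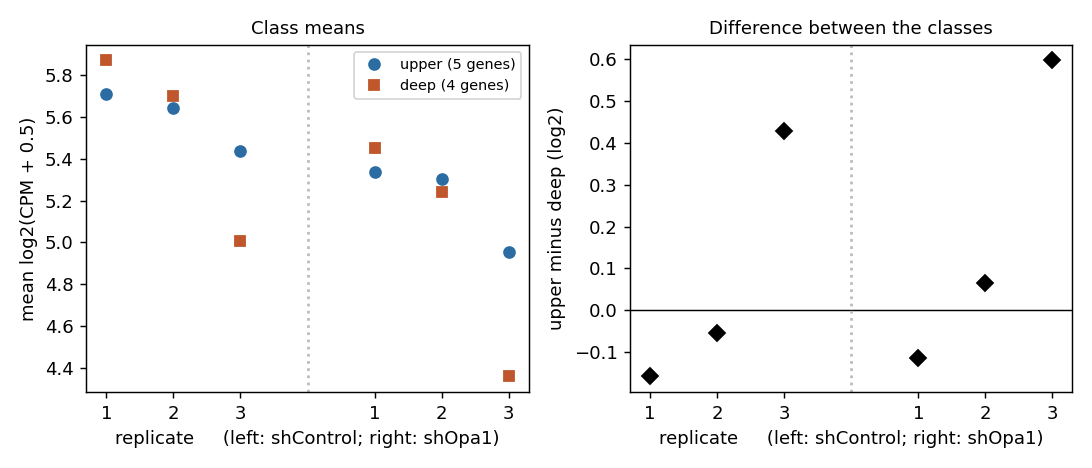
Left, mean log2(CPM + 0.5) of the 5 upper-layer and 4 deep-layer factors in each library; right, the upper-layer mean minus the deep-layer mean (log2). Both means are lower in shOpa1 than in the shControl library of the same number, and the difference runs from -0.16 to 0.43 in shControl and from -0.11 to 0.60 in shOpa1.

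Levels of different genes were compared as CPM per kilobase of merged exons, which depends on how much of each gene model the neurons use. In shControl Pou3f3 (17.1 ± 3.28), Tbr1 (16.8 ± 1.48) and Bcl11b (14.8 ± 1.12; SD, n = 3) led and their ranges overlapped. Cux2 (8.84 ± 0.576) and Cux1 (7.15 ± 0.282) followed, each clear of its neighbours. Below them Fezf2, Pou3f2 and Sox5 overlapped at 4.35 ± 2.59, 2.90 ± 0.660 and 2.46 ± 0.820, and Rorb was lowest at 0.865 ± 0.319. In shOpa1 the order was Bcl11b (12.7 ± 0.434), Tbr1 (12.1 ± 1.67), Pou3f3 (12.01 ± 2.89), Cux2 (4.97 ± 0.494), Fezf2, Cux1 (3.50 ± 0.0858), Pou3f2, Rorb and Sox5. Neighbours overlapped in range among the first 3, from Cux2 through Fezf2 (3.94 ± 2.65) to Cux1, and between Rorb (1.28 ± 0.667) and Sox5 (1.17 ± 0.543). The ratio of Cux1 to Cux2 per kilobase was 0.811 ± 0.0619 in shControl and 0.710 ± 0.0864 in shOpa1 and the ranges overlapped. That of Tbr1 to Bcl11b was 1.15, 1.13 and 1.12 in shControl and 1.04, 0.975 and 0.839 in shOpa1, without overlap. Across the classes, the ratio of Cux2 to Tbr1 was 0.521, 0.521 and 0.544 in shControl and 0.332, 0.396 and 0.533 in shOpa1, with overlap. The ratios of Fezf2 to Tbr1 and of Pou3f3 to Pou3f2 overlapped as well. How often ratios of other genes do not overlap was not counted.

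The libraries numbered 3 differed from the others in factors of both classes, and for all but Cux2 in the same direction with and without the knockdown. Fezf2 in replicate 3 lay 1.80 (log2) below the mean of replicates 1 and 2 in shControl, its offset being -1.80, and -2.29 in shOpa1. The offsets were -1.01 and -1.56 for Rorb, -0.89 and -1.23 for Sox5, and -0.51 and -0.65 for Pou3f3. The size of the mean offset was above that of 99.8% of tested genes for Fezf2, 99.1% for Rorb, 98.3% for Sox5 and 92.1% for Pou3f3. Cux1 (-0.02 and -0.06) and Bcl11b (-0.19 and -0.09) hardly moved, and Pou3f2 was higher in replicate 3, by 0.48 and 0.24. Of 17 factors of excitatory neurons, 9 were lower in replicate 3 by more than the 90th percentile of all tested genes.

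**Figure D4:**
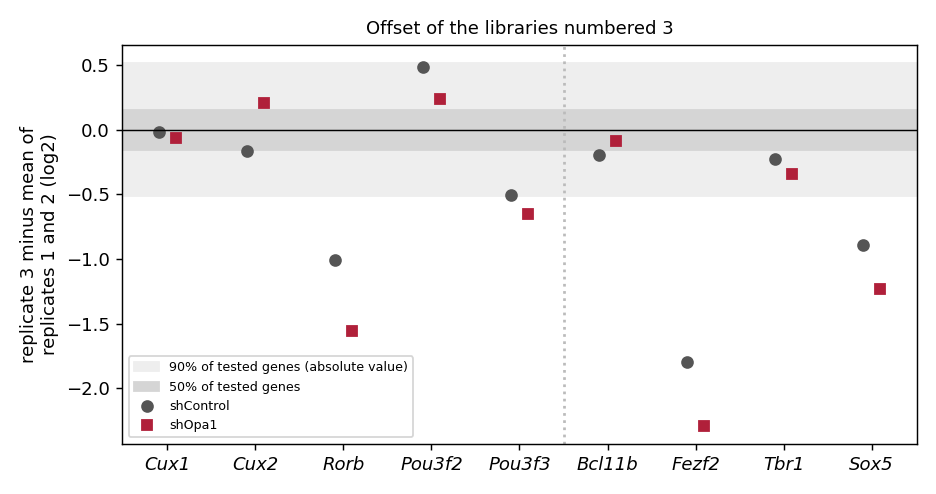
Replicate 3 minus the mean of replicates 1 and 2 on log2(CPM + 0.5) (vertical axis) for each factor in shControl (circles) and shOpa1 (squares); grey bands hold 50% and 90% of tested genes by the size of their mean offset. Fezf2, Rorb and Sox5 lie below the outer band in both groups, from -0.89 to -2.29.

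Further genes of the 2 laminar programmes, from lists drawn up with earlier results in view, went in both directions. Of 9 other upper-layer or callosal genes 2 fell and 0 rose (6 and 1 with the block), with a median of -0.36. Beside them 20.0% of all tested genes were called lower and 18.9% higher, or 30.7% and 28.8% with the block. The netrin receptor gene Unc5d dropped by 1.23 (log2), with 93.0 ± 6.67 CPM in shControl and 39.6 ± 2.34 in shOpa1 (SD, n = 3), and the adhesion gene Nectin3 by 0.88. Mdga1, an adhesion gene of upper-layer neurons, had a log2 fold change of -1.15 (adjusted p = 0.139, and 4e-07 with the block).

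Of 16 other deep-layer and subplate genes 5 fell and 3 rose (7 and 4 with the block), with a median of -0.20. The shares over all tested genes were 20.0% lower and 18.9% higher, and 30.7% and 28.8% with the block. Genes known from layer 6 were found among the lower and the higher ones. The neurotensin receptor gene Ntsr1 fell from 29.5 ± 3.10 to 10.8 ± 1.76 CPM, the heparan sulfate sulfotransferase gene Hs3st4 from 78.9 ± 10.6 to 37.5 ± 4.24 CPM and Rprm, a cell cycle regulator, from 115 ± 31.4 to 48.9 ± 5.17 CPM (SD, n = 3). Crim1, a marker of corticospinal neurons, had the steepest fall, with a log2 fold change of -1.89. The subplate gene Cplx3 rose by 2.59 from a level of 0.447 ± 0.0979 CPM, Zfpm2 (FOG2), a cofactor found in layer 6 neurons, rose by 0.94, and Tle4, the layer 6 co-repressor, had a log2 fold change of 0.27 (adjusted p = 0.173, and 0.000691 with the block).

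Of 17 factors that excitatory cortical neurons share, 4 fell and 0 rose (13 and 0 with the block), with a median of -0.52. Among all tested genes 20.0% were called lower and 18.9% higher, and 30.7% and 28.8% with the block. Emx1, a homeobox gene of the dorsal telencephalon, fell by 1.07, the HLH gene Id2 by 0.79, the nuclear receptor gene Nr2f1 (COUP-TFI) by 0.55 and Bcl11a by 0.52. Tcf4 and Mef2c, the most abundant of those not called, had log2 fold changes of -0.48 and -0.48 (adjusted p = 0.327 and 0.276, and 5.91e-06 and 8.1e-06 with the block).

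Among paralogs of the factors both directions occurred. Sox6, a paralog of Sox5 used in inhibitory neurons and progenitors, fell from 70.8 ± 4.55 to 26.2 ± 2.12 CPM, a log2 fold change of -1.43. Pou3f4 was the relative that rose, from 10.3 ± 0.816 to 25.6 ± 2.66 CPM (log2 fold change 1.32, adjusted p = 0.000207), beside a Pou3f2 with no call and a lower Pou3f1 (-0.77, adjusted p = 0.0486). Eomes, the T-box gene of intermediate progenitors, fell by 0.94. Over the 9 tested relatives 4 fell and 1 rose (5 and 1 with the block). For relatives and cofactors alike, the shares over all tested genes were 20.0% lower and 18.9% higher (30.7% and 28.8% with the block). Of 9 cofactors of the laminar programme 0 fell and 2 rose without the block, the histone deacetylase gene Hdac2 at a log2 fold change of 0.37 and Rbbp4 at 0.20, and 1 fell and 3 rose with it.

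**Figure D5:**
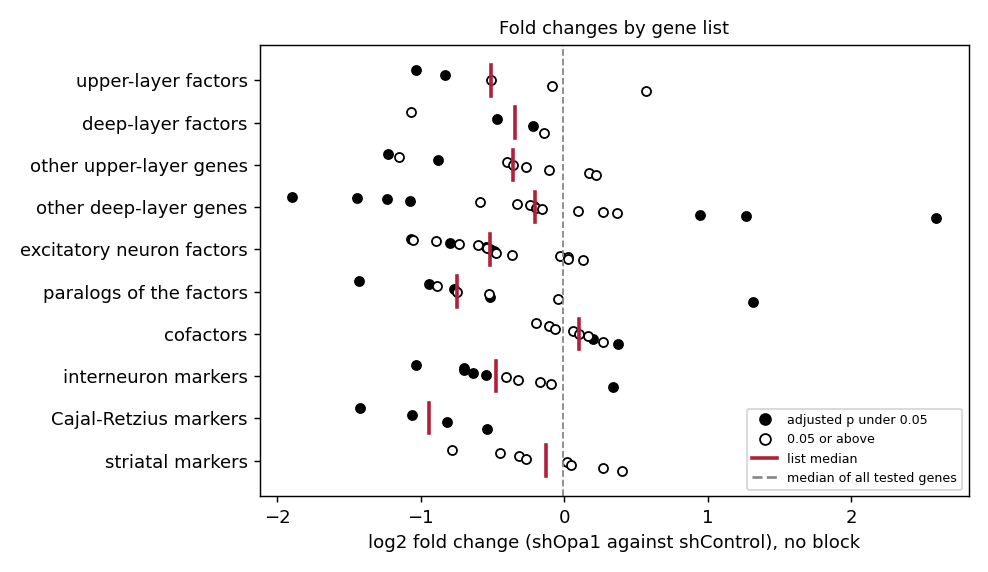
Log2 fold change without the block (horizontal axis) of each tested gene in 10 lists; filled points passed an adjusted p of 0.05, red bars are list medians and the dashed line is the median of all tested genes. The upper-layer and deep-layer factors have medians of -0.51 and -0.34, the excitatory neuron factors -0.52 and the cofactors 0.11.

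Markers of other cell types were counted in the same way. Their counts stand beside 20.0% of all tested genes called lower and 18.9% higher, or 30.7% and 28.8% with the block. All 4 Cajal-Retzius markers fell, their summed level running from 1480 to 2220 CPM in shControl and from 655 to 1050 CPM in shOpa1. Reln alone, at means of 1748 CPM in shControl and 838 CPM in shOpa1, made up most of these sums. Reln fell by 1.06 and Trp73 by 1.42, and Cajal-Retzius cells also use Tbr1. Of 10 markers of inhibitory neurons 5 fell and 1 rose (8 and 1 with the block), with sums of 2596 to 3160 and 1795 to 2403 CPM. Sst and Gad1 were the largest parts of these sums. Sst fell from a mean of 967 to 472 CPM, and Gad1 had a log2 fold change of -0.17 (adjusted p = 0.161, and 0.00925 with the block). Of 8 astrocyte markers 3 fell and 1 rose (6 and 1 with the block), with sums of 238 to 389 and 113 to 155 CPM. Of 8 markers of striatal neurons, which use Bcl11b, 0 passed without the block and 4 fell with it, with sums of 170 to 207 and 151 to 234 CPM. Of 9 tested progenitor markers 3 fell and 0 rose (5 and 1 with the block), with sums of 144 to 302 and 79.0 to 169 CPM. No tested marker of these lists was at 0 in any library, and their part in the factors' changes was not tested. Among general and glutamatergic neuron genes 4 of 6 fell (6 with the block), Tubb3 by 0.92 and Map2 by 0.33. The glutamate transporter genes Slc17a6 and Slc17a7 fell by 1.71 and 0.57 (edgeR adjusted p = 0.0022 and 0.0378). Rbfox3 and Neurod6 had log2 fold changes of -0.62 and -0.73 (adjusted p = 0.139 and 0.345 without the block). How these falls relate to those of the factors was not tested.

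The authors' deposited table gave the same signs. In the authors' deposited table the log2 fold changes ran from -1.11 for Sox5 to 0.50 for Rorb, and adjusted p was under 0.05 for 7 of the 9 factors against 40.9% of all genes given an adjusted p there. Of these 7 factors, 6 were lower in the authors' deposited table, where 20.7% of all genes were. The 2 not called in the authors' deposited table were Pou3f2 (-0.06, adjusted p = 0.771) and Fezf2 (-0.23, adjusted p = 0.325). These are also the 2 without a call in the blocked fit.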

How the data were processed

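RNA sequencing counts of 6 libraries were used. The library kit keeps strand, per the labels' protocols. The deposited table of raw read counts per gene comes from the authors' run of featureCounts 1.6.0, per the file headers. It was run on read pairs and Ensembl release 99 (GRCm38) with no strand option. Strand was thus not used to tell a gene from its antisense partner. HISAT2, DESeq2 and mm10 are named without versions, per the submitters' processing notes. The authors' deposited comparison holds log2 fold changes, a score (fold change over its error), p-values and size-factor normalised signal.

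Counts were fitted with edgeR 4.0.16 (R 4.3.3; TMM, default filter, robust quasi-likelihood test, Benjamini-Hochberg adjustment over all 16562 tested genes at 0.05). SE is the fold change over the root of F, and 95% intervals are unadjusted. Symbols matched 55144 of 55471 identifiers, and 0 value columns lacked a sample. Replicate numbers were taken as pairs, since same-numbered libraries deviated together from their groups (r = 0.595, 0.608 and 0.714). A shared offset of the libraries numbered 3 raises all of these r. They therefore cannot show that numbers 1 and 2 are separate pairs. Chi-square per degree of freedom between libraries of a group was 6.11 to 30.8, so none was a repeat. Alternatives were the replicate block, replicate 3 as a batch, RLE and total scaling, DESeq2 1.42.0, limma-voom 3.58.1, no filter, each library left out, and pairs 1 and 2. Fits were tested on simulated data. GAAACTA was sought in protein-coding GENCODE M21 transcripts, taking each gene's longest 3' UTR of at least 50 bases.

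The factors, lists and tests were chosen with earlier results of these data known. Named genes were the factors, Opa1, 1 gene that is not reported here, of each list up to 5 with the smallest p and 2 more of the largest CPM, of marker lists the 2 highest, and the 3 genes most like the highest and lowest called factor. Sox10, Fezf1, Slc17a6, Slc17a7, Rbfox3, Neurod6 and Zeb2 fall outside that rule and were named after their values were seen.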

Additional observations from a re-analysis of the deposited data

How the results depend on the processing

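Cux1 and Cux2 kept their call in all 14 alternatives, Tbr1 in 11 and Bcl11b in 5, while Pou3f3 and Sox5 were called in 4 each, Rorb in 3 and Pou3f2 and Fezf2 in 0. The replicate block called 9851 genes, 5081 lower and 4770 higher, against 6442, 3312 and 3130 without it. The block, replicate 3 as a second batch, and pairs 1 and 2 alone each called 7 factors, 1 of them, Rorb, an upper-layer factor that was higher. Library totals as the only scaling shifted all genes by 0.12 and called 2 factors, 0 of the deep layers, and DESeq2, limma-voom and the fit without a filter called 1 deep-layer factor each. Leaving out 1 library at a time gave 2 to 5 called factors, 0 to 3 of them deep-layer factors, and an upper-layer median of -0.67 to -0.33. The sign of Pou3f2 turned with library totals only (0.0384) and in pairs 1 and 2 alone (0.0197), running from -0.24 to 0.10 when 1 library was left out, and that of Fezf2 ran from -0.59 to 0.32. The upper minus deep change was -0.30 on summed CPM, 0.08 in pairs 1 and 2 alone, an alternative chosen after seeing the data, and -0.10 to 0.29 when 1 library was left out. For these changes the cause was not tested. Counting error was at most 10.2% for any factor and library. Among the factors the block changed no call besides those of Pou3f3, Sox5 and Rorb.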

Other observations

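The libraries numbered 3 also differed in relatives of the factors. Tbx21, a T-box relative of Tbr1 known from olfactory bulb mitral and tufted cells, stood at 2.68, 4.30 and 43.6 CPM in shControl replicates 1 to 3 and at 2.84, 4.96 and 19.6 CPM in shOpa1, with a log2 fold change of -0.89 (adjusted p = 0.593). Fezf1, the paralog of Fezf2 known from the olfactory system, held 2.64, 1.42 and 10.4 CPM in shControl and 1.64, 1.61 and 5.35 CPM in shOpa1. Both were highest in the libraries in which Fezf2 was lowest. Mdga1 was higher there as well, with 262 CPM (shControl) and 131 CPM (shOpa1), while the other libraries of each group held at most 129.7 and 49.6 CPM.

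Over the 6 libraries the genes most like Cux1 by Pearson's r of log2 CPM, among 11957 genes with a symbol and a mean of at least 50 counts, were Mkks (0.9998), Rps4x (0.9997) and Rcbtb1 (0.9996). Those most like Bcl11b were Sla (0.9986), Mfn1 (0.9976) and Puf60 (0.9951). With 6 libraries in 2 groups such values are common, since 1348 genes exceeded 0.95 for Cux1 and 284 for Bcl11b, and all of these genes share the same libraries.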
